A study of Rattus norvegicus with 9 samples.

Results

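Immediate early genes are transcribed within minutes of a growth factor, a depolarisation or the handling of cells, without new protein synthesis, and their RNA is short-lived. Kinase cascades and calcium act on factors already bound to their promoters, chiefly serum response factor with its ETS partners at CArG boxes and CREB at cyclic AMP response elements. The proteins they encode are mostly transcription factors that act on a later wave of genes, and enzymatic or mechanical dissociation of brain tissue is known to raise them. Of these genes, 9 were described here, taken by gene symbol with every probe that carries 1 of the symbols. They are Fos, Fosb, Jun and Junb, whose products pair into the transcription factor AP-1, Egr1 and Egr2, zinc finger factors, Nr4a1, an orphan nuclear receptor, Ier2, a nuclear protein induced by growth factors, and Arc, which acts in endocytosis at synapses. They were read by 12 probes of 35129, and they make up 9 of the 12167 genes with a named probe.

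The arrays measured total RNA from frozen oligodendrocyte progenitor cells (OPC) of newborn Rattus norvegicus, the cells that give rise to myelinating oligodendrocytes. By their labels, the groups were O4 cells, which carry the O4 antigen of later progenitors and are negative for NG2, NG2/A2B5 cells, which carry both NG2 and the early ganglioside marker A2B5, and NG2 cells, labelled by NG2 alone. Each group has 3 arrays, which the titles number I to III. Although 3 cultures are mentioned for the series, no label says that a numeral is a culture, so a p-value here reflects only the spread among 9 arrays, which may be technical. The labels give neither strain nor treatment, do not say how the populations were separated or how long cells waited before freezing, and include no cells taken before separation, so no value here is a change on sorting.

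The promoters of 3 of the genes are shown because they carry the response elements named above and because their genes give examples of different readings: Egr1 spanned 1.35-fold over the 9 arrays, Egr2 passed the test between arrays III and II, and Ier2 did not pass but read lower on every array III than on every array II. Each window runs from 250 bases before to 50 bases after the annotated start (RefSeq, build GRCr8), read 5′ to 3′ on the gene's strand. Capitals mark a CArG box in Egr1 and Egr2, and the cyclic AMP response element TGACGTCA in Ier2. The Egr1 window lies at chr18:26736828-26737127 on the plus strand, that of Egr2 at chr20:21054392-21054691 on the minus strand and that of Ier2 at chr19:40399123-40399422 on the plus strand. For Egr1 and Ier2 the start is the outer end of the annotated gene. The Egr2 window lies wholly inside its annotated gene (chr20:21050149-21055201), so the start used for Egr2 is an internal one.
Egr1: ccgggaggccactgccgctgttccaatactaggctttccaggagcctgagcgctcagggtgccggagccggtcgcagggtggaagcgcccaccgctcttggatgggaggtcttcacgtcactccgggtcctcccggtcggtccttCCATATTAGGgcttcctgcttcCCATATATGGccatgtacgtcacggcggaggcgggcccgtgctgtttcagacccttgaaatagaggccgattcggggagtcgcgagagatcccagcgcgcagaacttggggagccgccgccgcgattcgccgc
Egr2: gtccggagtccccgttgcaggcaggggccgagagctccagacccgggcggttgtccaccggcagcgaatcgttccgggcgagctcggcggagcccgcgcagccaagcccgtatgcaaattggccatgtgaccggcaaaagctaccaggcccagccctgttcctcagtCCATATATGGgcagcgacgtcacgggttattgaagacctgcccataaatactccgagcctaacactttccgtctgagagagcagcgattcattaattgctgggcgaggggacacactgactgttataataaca
Ier2: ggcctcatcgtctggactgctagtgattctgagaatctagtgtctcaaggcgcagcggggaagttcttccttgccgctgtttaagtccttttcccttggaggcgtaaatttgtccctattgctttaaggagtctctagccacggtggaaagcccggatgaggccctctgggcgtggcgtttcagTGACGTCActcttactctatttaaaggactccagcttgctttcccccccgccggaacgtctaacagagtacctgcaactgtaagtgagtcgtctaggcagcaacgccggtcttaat

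The CArG boxes of Egr1 begin 105 and 83 bases before the start, and that of Egr2 begins 83 bases before it, with the same 10 letters as the nearer box of Egr1, CCATATATGG. A CArG box, searched on both strands, stands in 1.64% of 33469 promoter windows of the same length. The element TGACGTCA of Ier2, which reads the same on both strands, begins 66 bases before the start, and 1.83% of the windows hold it. Its first 5 letters, TGACG, which overlap it, were also searched alone on both strands. They stand in 21.2% of the windows and were found in Egr1 (135 and 66 bases before the start), in Egr2 (66), in Junb (155) and in Nr4a1 (246, 226, 82 and 53). Of the 9 genes, 6 had a promoter entry. The window of Fosb, the last of the 6, held none of the motifs searched, which were these, the AP-1 site TGANTCA (in 7.33% of windows) and the EGR site GCGNGGGCG (in 4.98%). The windows of Fosb (chr1:88089135-88089434) and Nr4a1 (chr7:134259888-134260187) lie wholly inside their annotated genes (chr1:88082324-88089506 and chr7:134247153-134268044). For Fosb, Nr4a1 and Egr2, the bases before the outer 5′ end of the gene were thus not searched, and they may hold such motifs. The EGR site, as CGCCCCCGC on the other strand, was found only in Nr4a1 among the 6, beginning 73 bases before the start. A match is a description of the letters, not evidence that a factor binds there.

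The deposited value is a scaled intensity on a linear scale, with array medians between 1.05 and 1.07 and 25th percentiles between 0.205 and 0.255. A reading under the 25th percentile of its array is taken here as low. Probes differ in brightness for reasons other than RNA, so values are compared between arrays and not between probes. Of the OPC and oligodendrocyte markers, Sox10 read 29.7 to 47.6, Bcas1 207 to 339 and Cnp 155 to 265 on all 9 arrays. Pdgfra, a receptor that defines the early progenitor, read 0.213 to 0.917 and Olig2 0.292 to 0.709, under the array medians, so these probes do not show their genes above the middle of the arrays. Cspg4, the gene of NG2, read 125, 92.1 and 154 in O4, 104, 127 and 185 in NG2/A2B5 cells and 135, 146 and 166 in NG2. The O4 arrays thus read far above the array medians for the gene of an antigen that their label gives as negative, and O4 minus NG2 was -0.30 on the log2 scale (SE 0.27, adjusted p 0.803). O4 read lower than NG2 within each numeral, but O4 array III, at 154, read above NG2 arrays I and II, at 135 and 146. No difference in this RNA was thus shown by the test, which does not show that there is none, and the antigen itself was not measured.

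**Figure D1:**
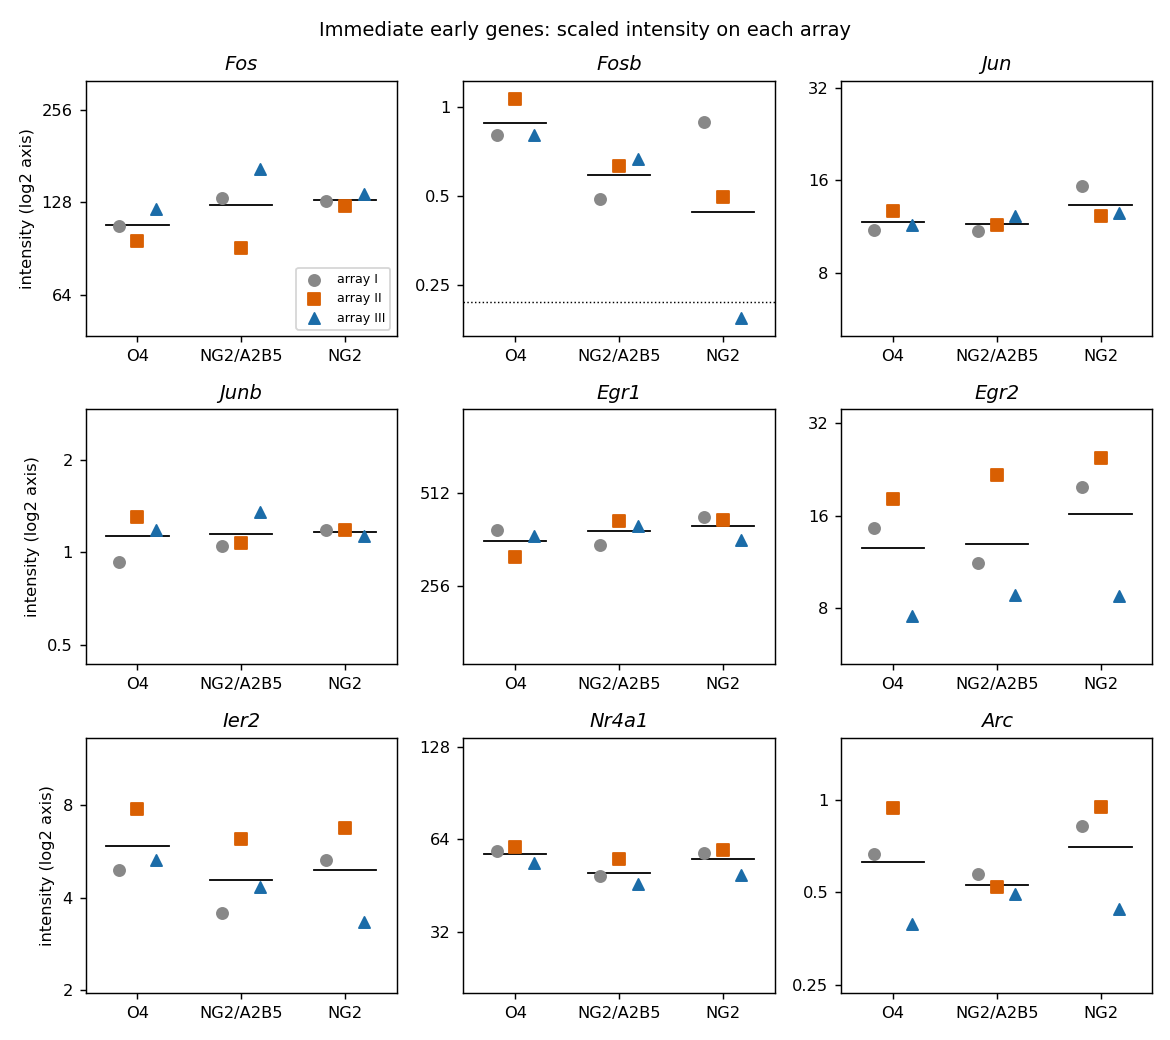
Scaled intensity (log2 axis) of the main probe of each of the 9 genes on every array, by population from left to right as O4, NG2/A2B5 and NG2, with grey circles for arrays I, orange squares for arrays II and blue triangles for arrays III. Bars are population means of the log2 values and the dotted line is the median 25th percentile of the arrays. For Egr2 the 3 triangles lie under all other points, while Egr1 and Jun stay within narrow bands.

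Across the populations, none of the 9 genes passed a test. In O4 against NG2, in O4 against NG2/A2B5 and in NG2/A2B5 against NG2, limma called 0 of the 9 at an adjusted p under 0.05, and 0 had even an unadjusted p under 0.05. Over all genes tested the share called was 0.00822% in both comparisons with O4 and 0% in NG2/A2B5 against NG2, and the share at an unadjusted p under 0.05 was 8%, 3.28% and 4.48% in these 3 comparisons. The F test over the populations also called 0 of the 9, with 0 at an unadjusted p under 0.05, against 0.00822% and 5.37% of all genes. The range of the numeral means exceeded the range of the population means for 6 of the 9, a share close to that of all genes with complete values, 61%. The exceptions were Fosb, Jun and Egr1.

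Between arrays III and arrays II, across all 3 populations, Egr2 fell 2.56-fold, and it was the only one of the 9 called in any comparison of numerals. Ier2, Arc and Nr4a1 also read lower on every array III than on every array II without passing the test, Fos read higher on array III than on array II within each population, and Jun, Junb and Egr1 had differences near 0. These comparisons are described gene by gene below, in the order AP-1 subunits, EGR factors, Ier2, Nr4a1 and Arc.

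Fos encodes the AP-1 subunit that is induced most widely by stimulation, and both of its probes read above the array median on all 9 arrays. Its main probe read 107, 95.6 and 122 on O4 arrays I, II and III, 132, 91.0 and 164 on NG2/A2B5 arrays and 129.7, 125 and 137 on NG2 arrays. Within each population array II was the lowest and array III the highest. The averages were 108 ± 13.2 in O4, 129 ± 36.7 in NG2/A2B5 cells and 130.4 ± 5.96 in NG2 (SD, n = 3 each), so NG2 was followed by NG2/A2B5 and then O4, and no neighbours in that order differed by the test. All 3 O4 arrays lay under all 3 NG2 arrays, as for 6.54% of all genes, but the log2 difference of -0.28 had an interval of -0.80 to 0.25 and an adjusted p of 0.785. The second probe read 24.98, 24.8 and 40.1 in O4, 33.3, 29.1 and 42.1 in NG2/A2B5 cells and 44.9, 21.3 and 44.3 in NG2. Again array II was the lowest of each population, and for this probe the arrays III and II did not overlap.

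Arrays III minus arrays II gave a log2 difference of 0.44 for the main Fos probe (95% interval 0.03 to 0.85, higher in 3 of 3 populations), with an adjusted p of 0.186. The second probe gave 0.76 (0.16 to 1.36), with an adjusted p of 0.223 in the fit of all probes. Neither probe passed over all genes or probes tested, and the direction was opposite to that of Egr2.

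Fosb, the close relative of Fos whose shortened form accumulates in neurons under repeated stimulation, read under the array median on 8 of the 9 arrays. Its probe gave 0.804, 1.07 and 0.806 in O4, 0.488, 0.632 and 0.665 in NG2/A2B5, and 0.893, 0.497 and 0.192 in NG2. The last of these is under the 25th percentile of its array, and the other 8 readings are over theirs. O4 averaged highest and NG2 lowest, and the log2 difference of 1.005 for O4 minus NG2 was the largest of any of the 9 genes between populations (interval -0.15 to 2.16, adjusted p 0.666). It shrank to 0.41 without array III of NG2, the low reading. O4 arrays all lay above NG2/A2B5 arrays, as for 5.3% of all genes, with a difference of 0.58 (-0.57 to 1.74).

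Jun, the main partner of Fos in AP-1, was among the steadiest of the 9 genes. It read 11.0, 12.7 and 11.5 in O4, 11.0, 11.4 and 12.2 in NG2/A2B5 cells and 15.3, 12.3 and 12.5 in NG2. The highest array was thus 1.39 times the lowest. NG2/A2B5 arrays all lay under NG2 arrays, as for 5% of all genes, with a log2 difference of -0.20 (interval -0.55 to 0.14). For arrays III minus arrays II it was -0.01 (-0.37 to 0.35), so a difference of more than 0.37 either way lies outside that interval.

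Junb, a Jun relative that restrains Jun at some targets, read close to the array medians. Its main probe gave 0.928, 1.30 and 1.18 in O4, 1.05, 1.07 and 1.35 in NG2/A2B5 cells and 1.18, 1.18 and 1.13 in NG2, and the population averages were 1.14 ± 0.190 in O4, 1.16 ± 0.171 in NG2/A2B5 cells and 1.16 ± 0.0331 in NG2 (SD, n = 3 each). Between arrays III and arrays II the difference was 0.04 (-0.36 to 0.45). The second Junb probe read between 0.165 and 0.534, over the 25th percentile on 7 of 9 arrays, and gave -0.29 (-1.64 to 1.05) for the same comparison. The signs of the probes differed and both intervals held 0.

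Egr1 encodes the zinc finger factor that is a standard readout of MAP kinase signalling through the CArG boxes shown above. Its main probe read 388, 317 and 370.4 in O4, 347, 417 and 399 in NG2/A2B5 cells and 429, 418 and 360.1 in NG2. The 9 readings spanned 1.35-fold, and no numeral was high or low in all 3 populations. Egr1 averaged 358 ± 36.8 in O4, 388 ± 36.0 in NG2/A2B5 cells and 402 ± 37.0 in NG2 (SD, n = 3 each), an order with no difference between neighbours by the test. O4 minus NG2 was -0.17 (-0.52 to 0.19), and arrays III minus arrays II was -0.02 (-0.40 to 0.37). The second Egr1 probe read between 0.173 and 0.549, over the 25th percentile on only 5 of 9 arrays, and does not bear on this.

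Egr2 encodes a relative of Egr1 that Schwann cells of the peripheral nerve need to myelinate. Its only named probe read 14.6, 18.2 and 7.54 on O4 arrays I, II and III, 11.3, 21.7 and 8.85 on NG2/A2B5 arrays and 19.9, 24.8 and 8.77 on NG2 arrays. In every population array III was the lowest and array II the highest, and the 3 arrays III lay under all 6 others. Arrays III averaged 8.38 ± 0.736, against 21.5 ± 3.29 on arrays II and 15.2 ± 4.35 on arrays I (SD, n = 3 each, 1 array of each population).

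The log2 difference of arrays III minus arrays II was -1.35 (SE 0.19, 95% interval -1.83 to -0.88), lower in 3 of 3 populations, with an adjusted p of 0.0351. Within O4, NG2/A2B5 and NG2 it was -1.27, -1.29 and -1.50. Over all genes this comparison called 3.55%, 1.64% higher and 1.92% lower. The call rested on all 9 arrays: without any 1 of them the difference stayed between -1.49 and -1.23, but the adjusted p lay between 0.0559 and 0.151. It was also lost with the mean of each gene's probes (adjusted p 0.0535) and in the fit of all probes (0.0923). Arrays III minus arrays I gave -0.83 (-1.30 to -0.35, adjusted p 0.261) and arrays II minus arrays I gave 0.53 (0.05 to 1.003, adjusted p 0.256). The F test over the numerals, which called 0 of the 9 genes and 0.674% of all genes, with 3 of the 9 and 21.5% of all genes at an unadjusted p under 0.05, gave Egr2 an adjusted p of 0.0702. Between populations the averages were 13.4 ± 5.43 in O4, 13.9 ± 6.81 in NG2/A2B5 cells and 17.8 ± 8.20 in NG2, and O4 minus NG2 was -0.37 (-1.58 to 0.84).

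Markers of cell types also differed between arrays III and arrays II, and in these bulk samples fewer cells of a type and less RNA per cell cannot be told apart. Of all genes in this comparison, 5247 were higher and 6919 lower. The summed intensity of the 9 measured OPC and oligodendrocyte markers was 706 to 828 on arrays III and 532 to 586 on arrays II, with 6 of 9 higher and 0 called. For the 8 astrocyte markers the sums were 119 to 168 on arrays III and 72.4 to 107 on arrays II, with 4 higher and 4 lower. Both sums mostly reflect their brightest probes and not the whole list. On O4 array III, Bcas1 read 339, Cnp 265 and Cspg4 154 of the first sum of 828. There, Slc1a3 read 83.6 and Aldoc 69.0 of the astrocyte sum of 163.6. Gfap, the astrocyte filament, read 0.352, 0.597 and 0.501 on arrays III and 0.113, 0.139 and 0.187 on arrays II, all 3 of the last under the 25th percentile and so low. Its difference of 1.72, which was called, is taken against those low readings, and with readings under the 25th percentile set to it the difference was 0.9997 (adjusted p 0.0410). Aldoc, a glycolytic enzyme of astrocytes, was called higher at 1.27. The sums were 11.6 to 13.5 on arrays III and 12.3 to 17.2 on arrays II for 12 microglia markers (7 higher, 5 lower), 7.51 to 13.3 and 12.4 to 17.1 for 4 neuron markers (1 higher, 3 lower), 9.01 to 11.5 and 7.33 to 9.86 for 8 markers of endothelium and pericytes (2 higher, 6 lower), and 22.6 to 27.5 and 26.1 to 32.8 for 5 fibroblast markers (1 higher, 4 lower). In these lists only Vwf, a clotting protein of endothelium, was called, higher at 1.95. The part of these differences in the Egr2 result was not tested.

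**Figure D2:**
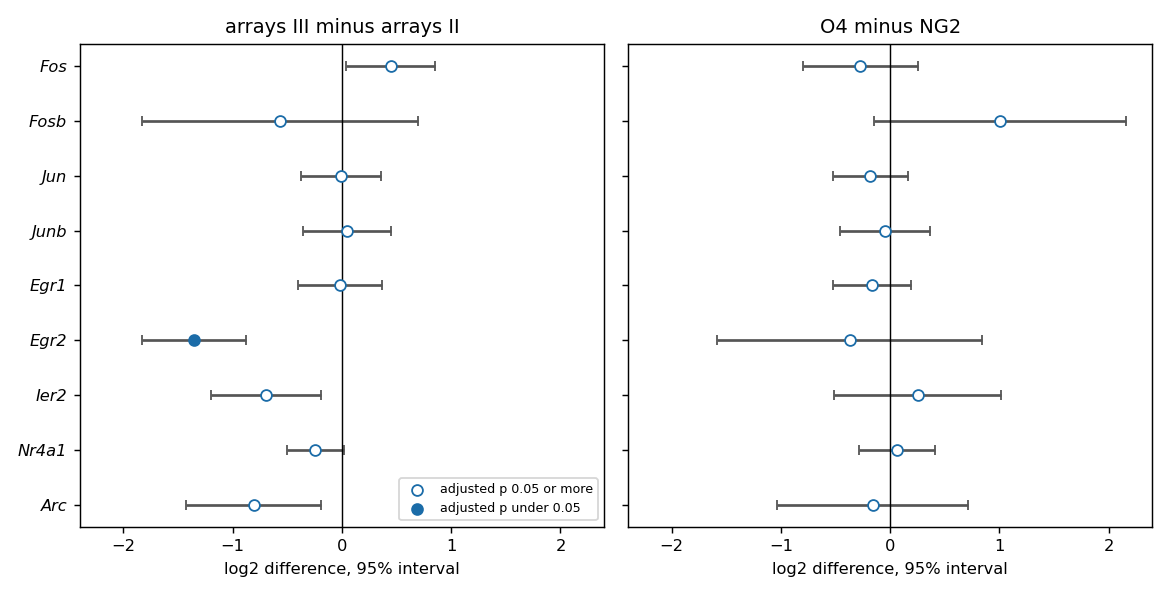
Log2 difference with its 95% interval for the 9 genes in arrays III minus arrays II (left) and in O4 minus NG2 (right), where a filled point marks an adjusted p under 0.05. Egr2 at -1.35 in the left panel is the only filled point, and every interval in the right panel holds 0.

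Ier2 read 4.94, 7.77 and 5.30 in O4, 3.56, 6.23 and 4.33 in NG2/A2B5 cells and 5.33, 6.76 and 3.35 in NG2. Array II was the highest in each population, and no array III reached any array II. Arrays III averaged 4.33 ± 0.975, against 6.92 ± 0.782 on arrays II and 4.61 ± 0.933 on arrays I (SD, n = 3 each). The difference of arrays III minus arrays II was -0.70 (SE 0.20, interval -1.20 to -0.19, adjusted p 0.119), and that of arrays II minus arrays I was 0.60 (0.10 to 1.10, adjusted p 0.233). Ier2 passed in neither, while arrays III minus arrays I gave -0.10 (-0.60 to 0.41). O4 minus NG2/A2B5 was 0.36 (-0.41 to 1.13).

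Nr4a1 read 58.6, 60.6 and 53.7 in O4, 48.7, 55.4 and 45.7 in NG2/A2B5 cells and 57.8, 59.3 and 48.9 in NG2, a 1.33-fold span over the 9 arrays. Within each population array II was again the highest and array III the lowest, by small margins. The difference of arrays III minus arrays II was -0.24 (interval -0.51 to 0.02, adjusted p 0.241). By population, Nr4a1 averaged 57.6 ± 3.54 in O4, 49.9 ± 4.96 in NG2/A2B5 cells and 55.3 ± 5.61 in NG2 (SD, n = 3 each), and O4 minus NG2/A2B5 was 0.21 (-0.13 to 0.55).

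Arc, which neurons transcribe on synaptic activity, read under the array median on all 9 arrays and over the 25th percentile on all 9. Its values were 0.665, 0.939 and 0.395 in O4, 0.573, 0.521 and 0.494 in NG2/A2B5 cells and 0.820, 0.948 and 0.443 in NG2. Array III was the lowest in each population, and in NG2/A2B5 the margin to array II was small. The arrays III minus arrays II difference was -0.81 (SE 0.25, interval -1.42 to -0.19, adjusted p 0.131), and arrays III minus arrays I gave -0.62 (-1.23 to -0.00, adjusted p 0.394). NG2/A2B5 minus NG2 was -0.41 (-1.28 to 0.47).

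Read together by their main probes, 4 of the 9 genes (Egr2, Ier2, Arc and Nr4a1) were lower on every array III than on every array II, where 16% of all genes were, and 0 were higher on every array, where 10.5% of all genes were. The second Fos probe, not counted here, was higher on every array III than on every array II. Lower in 3 of 3 populations were the same 4 genes, against 27.6% of all genes, and higher in 3 of 3 was 1, Fos, against 18.7%. At an unadjusted p under 0.05 stood 4 of the 9 (Egr2, Ier2, Arc and Fos), against 23.7% of all genes. The median difference of the 9 was -0.24, against -0.08 for all genes, with 2 above and 7 below 0, against 5247 above and 6919 below of all genes. In arrays II minus arrays I, 0 of the 9 were called and 2 (Egr2 and Ier2) had an unadjusted p under 0.05, against 0.23% and 17.2% of all genes. In arrays III minus arrays I, 0 were called and 2 (Egr2 and Arc) had an unadjusted p under 0.05, against 0% and 12.6%. These comparisons share arrays, and the numerals were not assigned by a treatment.

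Other genes of the same response, in lists of their kin, regulators and targets, showed called genes in both directions between arrays III and arrays II. The lists were described by counts, with no test of a list. Over all genes in this comparison, 5247 were above and 6919 below 0, so a lean below 0 is not particular to a list. Of 34 other immediate early genes measured, 15 were above and 19 below 0, with a median of -0.16, and limma called 2 higher and 3 lower, against 1.64% higher and 1.92% lower of all genes. Ier3, an early gene of stress and survival signalling, fell by 1.30 (SE 0.16, adjusted p 0.0274). It read 150.5, 131 and 137 on arrays III of O4, NG2/A2B5 and NG2, and 355, 258 and 439.9 on arrays II. Ier5, an early gene that acts on heat shock factor, fell by 0.91 (adjusted p 0.0435), and Klf6, a zinc finger factor, by 0.94 (adjusted p 0.0494), with -0.93 for a second Klf6 probe. For these 3 genes, and for the called genes named in the next paragraphs, the adjusted p was over 0.05 without any 1 of the 9 arrays.

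The called genes of the opposite direction were Cebpd and Gadd45b. Cebpd encodes a transcription factor of inflammation and hormone responses, and rose by 2.00 on arrays III against arrays II (SE 0.15, adjusted p 0.0216). It read 37.0, 34.6 and 40.1 on arrays III of O4, NG2/A2B5 and NG2, against 8.48, 8.65 and 10.9 on arrays II, while arrays I read 43.6, 35.3 and 36.0. Arrays II thus stood apart, and Cebpd was also called lower on arrays II than on arrays I, at -2.04 (adjusted p 0.0454), where limma called 0.23% of all genes. Gadd45b, a stress gene that acts on MAP kinase signalling, rose by 0.85 on arrays III against arrays II (adjusted p 0.0440).

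**Figure D3:**
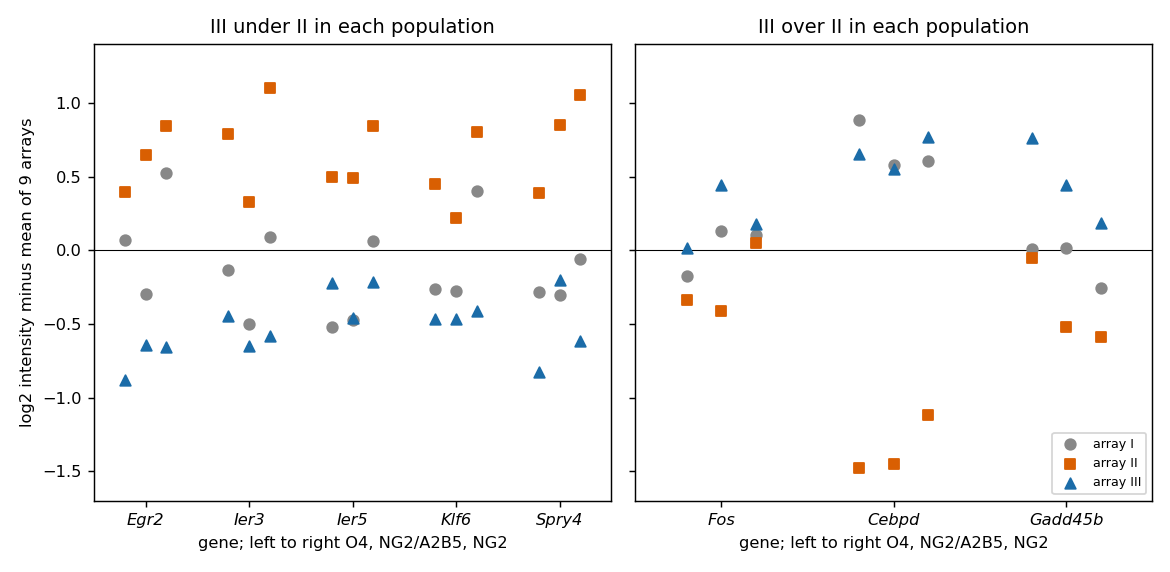
Log2 intensity of each array minus the mean of the 9 arrays, for genes lower on array III than on array II in each population (left) and higher in each (right), with grey circles for arrays I, orange squares for arrays II, blue triangles for arrays III and the populations from left to right within a gene as O4, NG2/A2B5 and NG2. Of the genes drawn, all but Fos were called. Arrays II of Cebpd lie furthest from the others.

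Feedback inhibitors are made in the same response and dampen it, and 14 of them were measured. Between arrays III and arrays II, 4 were above and 10 below 0, with a median of -0.41. Spry4, an inhibitor of receptor tyrosine kinase signalling, was the only one called, and fell by 1.31 (SE 0.19, adjusted p 0.0360), where 1.92% of all genes were called lower. It read 41.9, 64.5 and 48.5 on arrays III of O4, NG2/A2B5 and NG2, and 97.4, 134 and 154 on arrays II. These arrays did not overlap, as for 16% of all genes in this direction. Its relative Spry1 stood at 0.81 without passing, in the other direction. Dusp1, the phosphatase that switches off MAP kinases, stood at -0.76 (adjusted p 0.122).

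The relatives of the 9 genes held no called gene between arrays III and arrays II. Of 8 AP-1 relatives 1 was above and 7 below 0, with a median of -0.63, and the smallest p belonged to Maff at -0.79 (adjusted p 0.0779), Batf3 at -0.94 and Fosl1 at -1.19 (adjusted p 0.0937 and 0.104). Of 6 EGR and NR4A relatives and EGR co-repressors 1 was above and 5 below 0, with a median of -0.41, led by Nr4a3 at -0.77 (adjusted p 0.0534). In these relatives 0 of 14 passed, with 6 AP-1 relatives and 2 of the others at an unadjusted p under 0.05, against 23.7% of all genes.

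Upstream of the response, 17 measured kinases and factors split 4 above and 13 below 0 with a median of -0.26 and 0 called. Srf, the serum response factor itself, stood at -0.31 (adjusted p 0.212) and its partner Elk4 at -0.54 (adjusted p 0.136). Of 6 Arc partners and other plasticity genes 2 were above and 4 below 0, with a median of -0.35 and 0 called, led by Nrn1, a growth factor of neurites, at -1.19 (adjusted p 0.0704). Heat shock genes, which dissociation is also known to raise, split 2 above and 7 below 0 with a median of -0.32. Of these 9, Hsph1, a nucleotide exchange factor of Hsp70, fell by 1.01 (adjusted p 0.0278), and Hspa5, the chaperone of the endoplasmic reticulum, fell by 0.91 (adjusted p 0.0439). Over all genes, 1.92% were called lower.

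**Figure D4:**
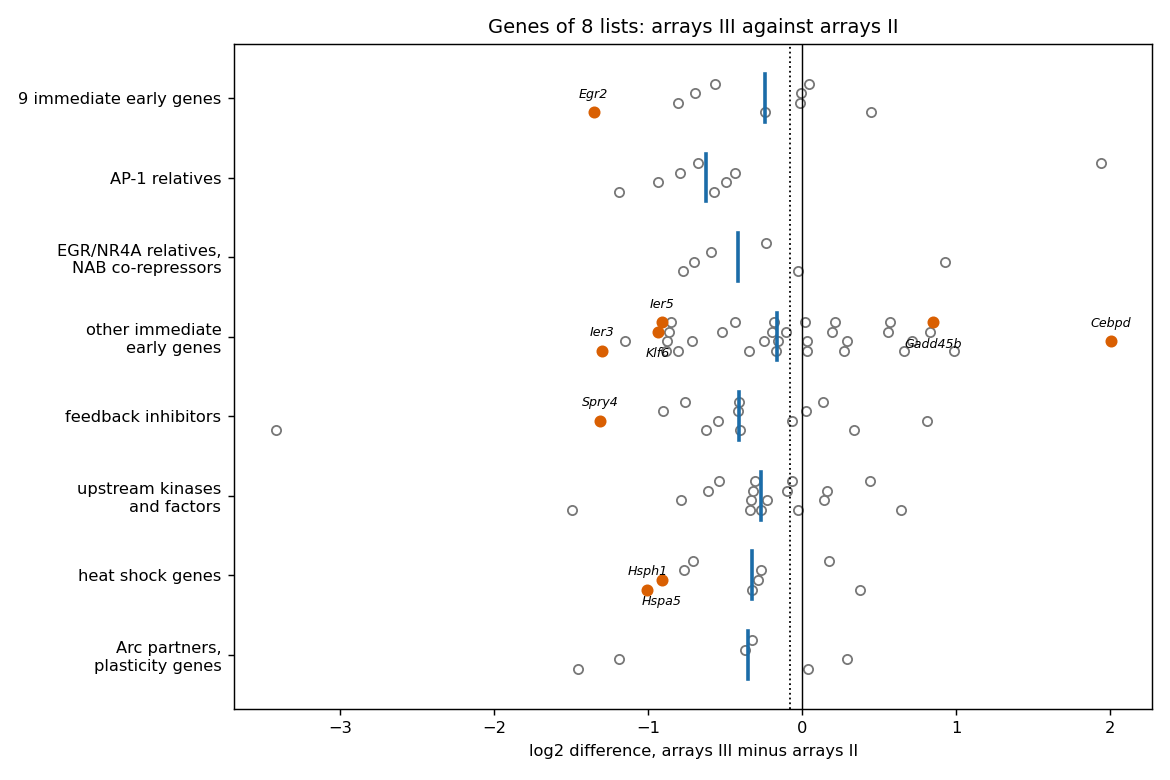
Log2 difference of arrays III minus arrays II for each measured gene of 8 lists, with blue bars at list medians, the dotted line at the median of all genes (-0.08) and orange points at an adjusted p under 0.05. Called genes lie on both sides of 0 among the other immediate early genes, and on the lower side in the feedback inhibitors and heat shock genes.

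Between the populations, 0 genes of any of these lists were called. The list medians of O4 minus NG2 lay at -0.16 for the 9 genes, 0.14 for AP-1 relatives, 0.09 for EGR and NR4A relatives and co-repressors, -0.02 for other immediate early genes, -0.09 for feedback inhibitors and -0.13 for heat shock genes, against 0.02 for all genes. For upstream kinases and factors the median was -0.15, and for Arc partners and other plasticity genes 0.13. By the smallest p, the leading heat shock gene was Hsp90ab1, a constitutive chaperone. It read 44.4, 41.8 and 35.8 in O4 and 22.0, 22.9 and 17.9 in NG2, a difference of 0.96 with an adjusted p of 0.546. Among the other immediate early genes, Trib1 had the smallest p, with a difference of 1.715 (adjusted p 0.566), higher in O4 within each numeral. Its readings on NG2 arrays I and II, 0.202 and 0.161, lay under the 25th percentiles of those arrays and so were low. Neither difference passed over all genes.

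Genes with a profile over the 9 arrays like the mean profile of the 8 immediate early genes that read over the 25th percentile on every array were Ier3, Srxn1, Ifrd1, Sik1 and Gadd45a. The log2 values were centred but not scaled, so genes of wide spread weigh most in that mean. The log2 SD was 0.64 for Egr2, 0.47 for Arc and 0.41 for Ier2, against 0.14 for Egr1 and 0.15 for Jun. Fos (0.27) ran the other way between arrays III and II. Pearson's r was 0.886 for Ier3, 0.870 for Srxn1, an enzyme that repairs oxidised peroxiredoxins, 0.866 for Ifrd1, a transcriptional co-regulator, 0.855 for Sik1, a kinase of cyclic AMP signalling, and 0.853 for Gadd45a, a DNA damage gene. They were the highest of 790 genes that read over the 25th percentile on every array with a log2 SD of at least 0.5, and arrays of a numeral may share a culture or a processing step. These genes were chosen for their likeness to a profile that itself runs lower on arrays III than on arrays II, so their differences in that comparison follow from the choice and are given as a description. In arrays III minus arrays II, Srxn1 fell by 1.53 (adjusted p 0.0225) and Ifrd1 fell by 1.18 (adjusted p 0.0272), while Gadd45a at -1.15 (adjusted p 0.0549) and Sik1 at -0.89 (adjusted p 0.0785) did not pass. The other Srxn1 probes, which read 0.172 and 0.430 at most, gave 4.04 (SE 1.56) and -0.77 (SE 2.77), neither passing, so its fall rests on 1 probe of 3, and the mean of the probes gave 0.58 (adjusted p 0.798).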

How the data were processed

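The deposited values are the authors' scaled probe intensity on a linear scale. Per the labels, RNA was amplified by in vitro transcription in 2 rounds, biotin labelled, and normalized with spiked controls. Not given in the sources used here are scanner and software. All 9 array columns were used, and 0 columns were left out.

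Values coded -9999 were missing, and values at or below 0 were set to the array's smallest positive value before log2. Of the probes 16865 carry 1 symbol, 165 several and 18099 none, by the platform's annotation, and the last 2 classes were left out. Symbols were updated by Entrez identifier against RefSeq GRCr8 (16836 probes matched, 1 symbol changed). A gene was read by its probe with the highest mean, which is also its main probe here.

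Populations were compared in 1 limma fit (limma 3.58.1, R 4.3.3, two-sided) without a block, with 6 residual degrees of freedom, and numerals in another with a term for population, with 4. P-values were adjusted by Benjamini-Hochberg over the whole gene table and calls made under 0.05. Second probes were tested in a fit of all probes. With 9 arrays, their number sets the limit on precision.

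The 9 genes and the other 13 lists were chosen with earlier results of these data known, so no list was tested or adjusted alone. From each list the rule named the called genes, or up to 3 with the smallest p whose mean exceeds the median 25th percentile of the arrays (0.218). Dusp1, Spry1, and the marker genes whose levels are given were named outside it, after their values were seen. Likeness was ranked by Pearson's r. Other settings were quantile normalization, centred medians, a floor at the 25th percentile, leaving out low genes, averaging the probes of a gene, testing every probe, trend and robust variances (statmod 1.5.0), a numeral block, no population term and leaving out each array.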

Additional observations from a re-analysis of the deposited data

How the results depend on the processing

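None of the settings run called any of the 9 genes between populations. The genes called over the whole table varied more. In O4 minus NG2, where 1 gene was called, there were 0 with the floor, with low genes left out, with trend and robust variances or with the numeral as a fixed replicate block, 2 with the mean of a gene's probes or all probes, and 1 to 2 without 1 array. In O4 minus NG2/A2B5 (1) there were 0 with the floor, low genes left out, trend and robust variances or the fixed replicate block, and 0 to 4 without 1 array. In NG2/A2B5 minus NG2 (0) there was 1 with the mean of probes or all probes, and 0 to 3 without 1 array. The F test over populations (1) gave 0, 0, 0 and 0 with the floor, low genes left out, trend and robust variances and the fixed replicate block, 2 with the mean of probes or all probes, and 1 to 4 without 1 array. Same-numbered arrays of different populations had deviations correlated at 0.037 to 0.143 over 9 pairs, and others at -0.106 to 0.006 over 18. Every same-numbered pair thus stood above every other pair, though the correlations were small. The main fit of populations had no block because no label ties a numeral to a culture. Spread between numerals therefore stays in the error of that fit. A random replicate block (correlation 0.274) left these counts at 1, 1, 0 and 1.

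Between numerals, counts moved widely. Arrays III minus arrays II called 432 genes, but 1293 with the floor, 962 with low genes left out, 136 with the mean of probes, 0 with all probes, 1887 with trend and robust variances and 0 to 5 without 1 array. Of the 9 genes 1 was called, but 0 with the mean of probes or all probes, 2 (Egr2 and Ier2) with trend and robust variances and 0 without any 1 array. Arrays II minus arrays I called 28, but 402, 229, 2, 0 and 833 in the same settings, 63 with no population term and 0 to 3 without 1 array. Arrays III minus arrays I called 0, but 49 with the floor, 6 with low genes left out, 311 with trend and robust variances (1 of the 9 genes, Egr2) and 0 to 2 without 1 array. The F test over numerals called 82, but 919, 571, 30, 0 and 1821 in the same settings, 242 with no population term and 0 to 2 without 1 array, and of the 9 genes 1, 1 and 2 with the floor, low genes left out and trend and robust variances.

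Some differences changed sign. In arrays III minus arrays II, quantile normalization turned Jun to 0.0118 and Egr1 to 0.14, and the mean of probes turned Junb to -0.13. It also turned Srxn1, called at -1.53 by its brightest probe, to 0.58 (adjusted p 0.798). Leaving out 1 array gave ranges of -0.985 to 0.0404 for Fosb (-0.57 with all arrays, and 0.0404 without NG2 array III), -0.0945 to 0.0809 for Jun, -0.0695 to 0.166 for Junb and -0.144 to 0.0857 for Egr1. It gave -0.24 to 0.13 for Ier2 in arrays III minus arrays I, and -0.18 to 0.93 for Fosb in NG2/A2B5 minus NG2 (0.42 with all arrays, and -0.18 without NG2 array III). Egr2 in arrays III minus arrays II kept its direction in all settings and its call in 6 of 8 other than leaving out an array. The all-gene median of arrays II minus arrays I was 0.10, and 0.02 after quantile normalization. The causes of these changes were not tested. Readings under the 25th percentile of the array, such as 1 of Fosb and 4 of the second Egr1 probe, limit what can be read from them.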
